A study of Homo sapiens with 9 samples.

Results

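The OAS, MX and double-stranded RNA effector genes are a group of 7 genes (OAS1, OAS2, OAS3, OASL, MX1, MX2 and EIF2AK2) whose products restrain viruses inside the infected cell. They were taken by name from the 38021 genes of a count table, and all 7 had a row of their own and were tested in every comparison. The table held RNA sequencing of 786-O cells, an established human line grown from a clear cell renal cell carcinoma, in 9 libraries. All cells had been infected with a lentivirus (PLKO.1) that encoded a short hairpin RNA, selected for 1 week with puromycin at 2.5 µg/mL and then held at 1.25 µg/mL. The hairpin was a control in shControl (genotype labelled WT), and it targeted ARNT in shARNT (labelled ARNT knockdown) and BMAL1 in shBMAL1 (labelled BMAL1 knockdown), with 3 libraries labelled as biological replicates in each group. ARNT and BMAL1 are related transcription factors that pair with a partner protein to bind DNA, and the study asked how much each contributes to expression driven by HIF2α, the hypoxia factor that is stable in these VHL-deficient cells. Each knockdown rested on 1 hairpin and no uninfected cells were among the libraries, so the loss of the target and other effects of that hairpin cannot be told apart.

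Interferons are secreted alarm proteins. They bind receptors that act through JAK kinases and transcription factors such as STAT2 and IRF9, which switch on interferon-stimulated genes, of which the OAS and MX genes are textbook examples. OAS1, OAS2 and OAS3 are enzymes that sense double-stranded RNA and make short oligoadenylates, which act as a second messenger. OASL belongs to the same family but lacks that enzyme activity and carries ubiquitin-like domains. MX1 and MX2 are large GTPases of the dynamin superfamily. EIF2AK2 encodes PKR, a kinase that is activated by double-stranded RNA and slows translation by phosphorylating eIF2α. The genes were chosen by name with the results of both comparisons against shControl already known, so their values against shControl are a description here and carry no p-value.

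In RefSeq on GRCh38.p14 the group lay at 4 places. OAS1 (chr12:112906962-112933219), OAS3 (chr12:112938474-112973251) and OAS2 (chr12:112978519-113011723) were neighbours, while OASL (chr12:121017761-121039246) stood apart on the same chromosome. MX2 (chr21:41362027-41409393) and MX1 (chr21:41420558-41459214) formed a pair, and EIF2AK2 was at chr2:37099210-37156980. All 7 are protein-coding. Promoter windows, from 250 bases before to 50 bases after a start site, were found for 4 of the 7 genes (OAS1, OAS3, MX1 with 3 start sites, and EIF2AK2), and none was matched for OAS2, OASL or MX2. The core of the interferon-stimulated response element was searched on both strands as 2 copies of GAAA with any 2 bases between them. It was present in a window of OAS3, MX1 and EIF2AK2. Over the whole reference it was present in 3.57% of 35116 promoter windows, and in a window of 4.38% of 27305 genes. The windows below are shown because they hold the response element nearest to each start site, with the motif in capitals, and for OAS1, which had none, they show the variant GAAANGAAA that was added to the search after the sequences were seen (3.12% of windows). All are written 5′ to 3′ on the strand of the gene.
OAS3, plus strand, chr12:112938452-112938481: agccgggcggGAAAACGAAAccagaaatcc
MX1, plus strand, chr21:41420559-41420588: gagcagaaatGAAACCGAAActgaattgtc
EIF2AK2, minus strand, chr2:37156967-37156996: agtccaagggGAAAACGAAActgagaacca
OAS1, plus strand, chr12:112906934-112906963: tcccttctgagGAAACGAAAccaacagcag

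These 4 matches began 12 bases before the start site in OAS3, 11 bases after it in MX1, 6 bases before it in EIF2AK2 and 17 bases before it in OAS1. OAS3 held a second match 143 bases before its start. The E-box CACGTG, the palindrome that BMAL1 with CLOCK can bind, was found in the window of EIF2AK2 alone among the 4 genes and in 7.26% of all windows. It is shown because it was the only E-box in the windows searched for these 4 genes, and it began 181 bases before the start.
EIF2AK2, minus strand, chr2:37157144-37157173: gtgcaggggcagCACGTGggtgccaagccc

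The core letters of the hypoxia response element are ACGTG or GCGTG, and ACGTG, but not GCGTG, lies within the E-box. ACGTG was present in the EIF2AK2 window (21.4% of all windows), but only as part of the E-box shown above. GCGTG was present in the OAS3 window (36.5%). The gamma-activated site TTCNNNGAA was present in OAS1 and in 1 of the 3 MX1 windows (7.66% of all windows, 9.38% of genes). These matches describe letters only, and binding was not measured in these libraries.

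The libraries held 33793045 to 35444735 reads. The share of mitochondrial reads was 5.46 to 7.14% in shControl, 7.59 to 8.74% in shARNT and 8.71 to 9.66% in shBMAL1. It thus moved with the groups. Leaving the 15 mitochondrial genes out before scaling (chosen after the data were seen) gave the same calls for the 7 genes and hardly moved the median log2 fold change of all genes (0.0028 to 0.0041 under shARNT), so it bears on the scaling alone. Whether anything else that goes with this share had a part in the results was not tested. The gene that each hairpin targets was lower in its own group. ARNT had 2187 to 2551 normalised read counts (reads divided by a size factor for each library) in shControl and 1199 to 1239 in shARNT, and BMAL1, listed as ARNTL, had 735 to 797 in shControl and 292 to 346 in shBMAL1. Each knockdown also had less RNA of the other target. The log2 fold change was −0.26 for ARNTL under shARNT (DESeq2 adjusted p 0.0294) and −0.23 for ARNT under shBMAL1 (adjusted p 0.0187). For protein the study's immunoblot went the other way, with each factor slightly higher when the other was depleted. Of 8 renal and clear cell carcinoma markers, all were present in every library, but they did not all stay level. In shControl, shARNT and shBMAL1 PAX8 had 29841, 30597 and 21618 reads, and CA9 had 381, 54 and 801. Among the leukocyte and endothelial markers CD3E and CDH5 were at 0 throughout, PTPRC had 3 reads in 1 library, and CD14 had 29 to 33 reads per group. PECAM1 had 15, 23 and 12 reads in shControl, shARNT and shBMAL1, and VWF had 3 reads in 1 control library. In such bulk RNA, fewer cells that express a gene and less RNA per cell cannot be told apart.

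All 7 genes were lower in both knockdowns than in shControl, and for each of them the 3 libraries of either knockdown lay below all 3 control libraries. All 7 were called lower under shARNT, where 19% of 15164 genes tested were called lower and 35.4% called in either direction (DESeq2, adjusted p under 0.1), and all 7 under shBMAL1, where 19.4% of 19036 genes were called lower and 36.8% in either direction. Since these genes were chosen with these comparisons known, nothing is read from that count. The depth of the fall differed widely, from 14.7-fold (shARNT) and 17.2-fold (shBMAL1) in OAS2 to 1.48-fold and 1.54-fold in EIF2AK2, with OASL at 1.33-fold under shARNT.

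**Figure D1:**
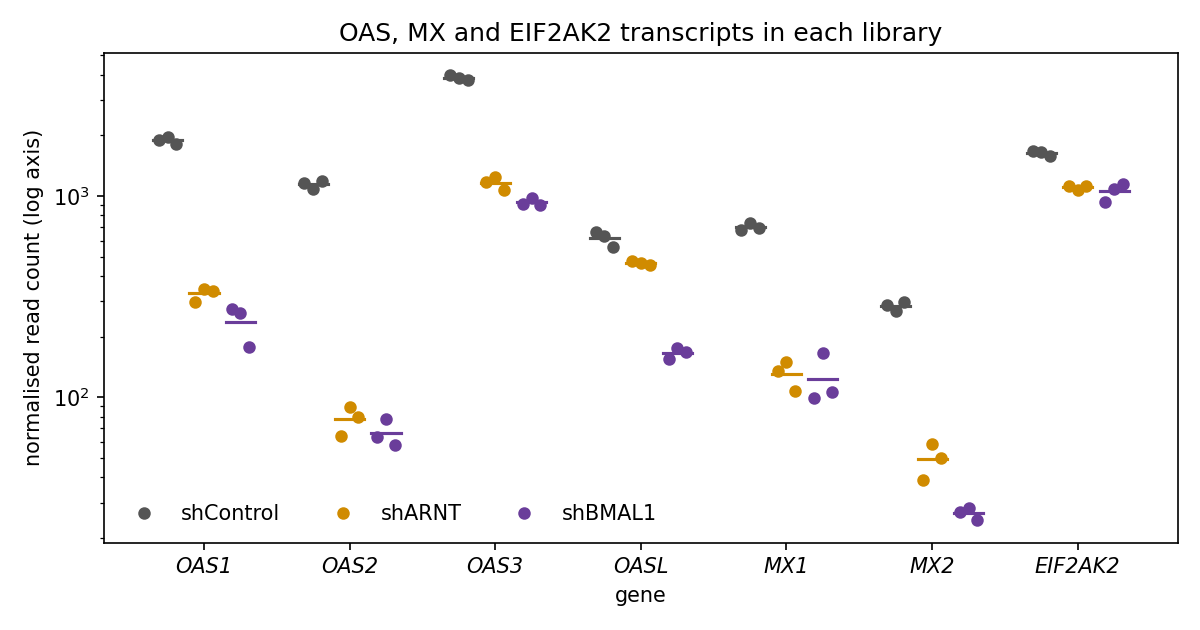
Normalised read counts (log axis) of the 7 genes in each of the 9 libraries, with 3 points per group and a line at the group mean. In every gene the control libraries sit above all knockdown libraries, for example OAS2 at 1078 to 1183 against 57.8 to 89.4.

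OAS2, whose product makes oligoadenylates, showed the deepest fall of the group. It had 1164, 1078 and 1183 normalised read counts in the shControl libraries, 64.3, 89.4 and 79.5 in shARNT, and 63.5, 77.6 and 57.8 in shBMAL1. The knockdown libraries overlapped each other and were far below control, and they kept 6.81% of the control mean in shARNT and 5.81% in shBMAL1. The log2 fold changes were −3.87 (SE 0.13) and −4.11 (SE 0.14). Among genes with a mean of at least 50 counts it was the most lowered of 12838 under shARNT and at position 2 of 12966 under shBMAL1.

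OAS1, the smallest of the synthetases, had 1896, 1962 and 1815 counts in shControl, 298, 347 and 338 in shARNT and 273, 261 and 177 in shBMAL1. All shBMAL1 libraries lay below all shARNT libraries, and shBMAL1 replicate 3 was the lowest. The means were 17.3% and 12.5% of control, with log2 fold changes of −2.53 (SE 0.09) and −3.00 (SE 0.12). Its positions from the most lowered gene were 7 in both lists.

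OAS3, the largest synthetase and the member with most reads, had 3972, 3858 and 3759 counts in shControl, 1173, 1237 and 1065 in shARNT, and 908, 972 and 906 in shBMAL1. Its mean was 3.33-fold lower in shARNT and 4.16-fold lower in shBMAL1. Here too the 3 shBMAL1 libraries were below the 3 shARNT libraries. The log2 fold changes were −1.73 (SE 0.07) and −2.06 (SE 0.07), at positions 32 and 23.

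OASL, the family member without synthetase activity, behaved differently in the knockdowns. Its counts were 659, 630 and 560 in shControl, 475, 464 and 455 in shARNT, and 155, 175 and 168 in shBMAL1. The groups formed 3 separate levels with no overlap, and 75.4% of the control mean was left in shARNT against 27.0% in shBMAL1. The log2 fold changes were −0.40 (SE 0.11) and −1.89 (SE 0.13), and the gene moved from position 1159 under shARNT to position 34 under shBMAL1.

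MX1, an antiviral GTPase of the cytoplasm, had 676, 733 and 692 counts in shControl, 135, 150 and 107 in shARNT, and 99.3, 165 and 107 in shBMAL1. The knockdown groups overlapped, with shBMAL1 replicate 2 above every shARNT library. Control means were reduced to 18.7% and 17.7%, log2 fold changes of −2.41 (SE 0.13) and −2.50 (SE 0.16).

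MX2, its paralogue at the nuclear envelope, had the fewest reads, with 287, 269 and 296 counts in shControl, 39.0, 58.9 and 49.7 in shARNT, and 26.8, 28.2 and 24.5 in shBMAL1. The groups did not overlap. The means were 17.3% and 9.33% of control, and the log2 fold changes were −2.53 (SE 0.20) and −3.42 (SE 0.23). The 3 shBMAL1 libraries together held 80 reads of this gene, the lowest total of the 7 genes.

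EIF2AK2, which encodes the kinase PKR, fell least under shBMAL1 and next to least under shARNT. Its counts were 1669, 1650 and 1571 in shControl, 1120, 1068 and 1124 in shARNT, and 936, 1081 and 1152 in shBMAL1. The knockdown groups overlapped and kept 67.7% and 64.8% of the control mean. The log2 fold changes were −0.56 (SE 0.07) and −0.63 (SE 0.09), at positions 630 and 755. Its annotated span overlaps the end of GPATCH11, which had 123 to 146 counts as group means, and a pseudogene, ARL14EPP1. The strand setting of the counting is not known, so reads of these genes and of EIF2AK2 may not have been told apart.

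Set side by side, the knockdowns shared the same control libraries, so a chance value in those libraries enters both columns. The median log2 fold change of the 7 genes was −2.41 under shARNT and −2.50 under shBMAL1, beside 0.0028 and 0.015 over all genes tested. In each knockdown OAS2 had the largest log2 fold change in size.

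**Figure D2:**
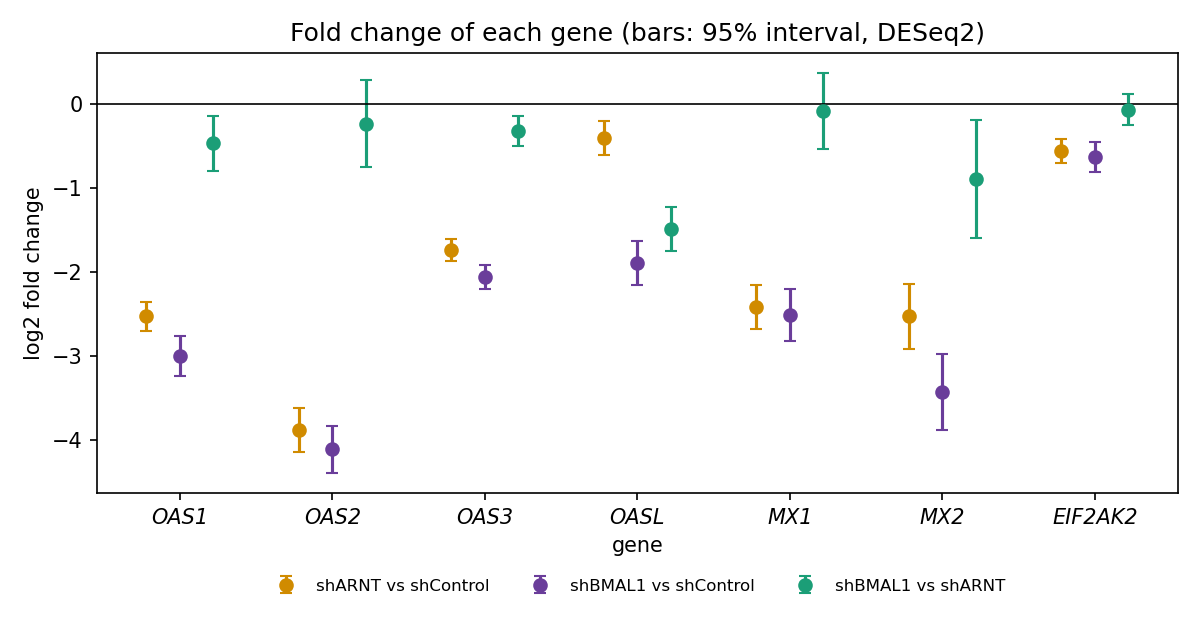
Log2 fold changes of the 7 genes for each knockdown relative to shControl and for shBMAL1 relative to shARNT, with 95% intervals from DESeq2. OASL stands out with −0.40 and −1.89 against shControl and −1.48 between the knockdowns.

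The direct comparison of shBMAL1 with shARNT asked whether the knockdowns differed from each other. It does not use the control libraries. Of the 7 genes, 4 were called lower in shBMAL1 and 0 higher, where 18% of 18181 genes tested were called lower and 35.3% in either direction. OASL differed most, by −1.48 on the log2 scale (SE 0.14, DESeq2 adjusted p 5.6e-26). OAS3 was lower by a smaller amount (−0.32, SE 0.09, adjusted p 0.00252), and this call held in each alternative except a minimum change of 1.5-fold. OAS1 (−0.47, SE 0.17, adjusted p 0.0188) and MX2 (−0.89, SE 0.36, adjusted p 0.0435) also passed the threshold, but leaving out single libraries ended both calls. A minimum change of 1.5-fold also ended the OAS1 call. OAS1 had an adjusted p of 0.107 without shARNT replicate 2 and 0.178 without shBMAL1 replicate 3, in a range of 0.00119 to 0.178 over all alternatives. MX2 had 0.228 without shARNT replicate 2, 0.131 without shARNT replicate 3 and 0.135 without shBMAL1 replicate 3, in a range of 0.00278 to 0.228.

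For the other 3 genes the direct comparison gave no call. For OAS2 the difference was −0.23 (95% interval −0.75 to 0.29, adjusted p 0.58), which leaves room for a difference of the size seen in OAS1. MX1 gave −0.08 (interval −0.54 to 0.37, adjusted p 0.845) and EIF2AK2 −0.06 (interval −0.25 to 0.12, adjusted p 0.683). The interval of EIF2AK2 was the narrowest of these and that of OAS2 the widest.

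Levels of different genes were compared only per kilobase of the canonical transcript. In shControl OAS1 was the most abundant at 1159 ± 45.4 counts per kilobase, followed by OAS3 at 585 ± 16.2 (SD, n = 3). MX1 (252 ± 10.5) and OAS2 (247 ± 12.1) overlapped, and OASL (188 ± 15.6), EIF2AK2 (163 ± 5.23) and MX2 (83.3 ± 4.07) followed with no overlap between them. In shBMAL1 the libraries of OAS1 (145 ± 32.0) and OAS3 (141 ± 5.64) overlapped, EIF2AK2 stood at 106 ± 11, and OAS2 was at 14.3 ± 2.21. This order depends on the length used. Per kilobase of coding sequence EIF2AK2 was at position 3 in shControl and at position 1 in both knockdowns, and MX1 was at position 6 in shControl. OAS1 was then at position 1 in shControl, 4 in shARNT and 3 in shBMAL1, where its libraries (143 to 220 counts per kilobase) lay below those of OAS3 (267 to 287).

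Within the OAS family the mixture changed, in shares per kilobase of canonical transcript. These shares depend on the length used. Per kilobase of coding sequence OAS1 (264 counts) lay below OAS3 (342) and OASL (301) in shARNT. OAS1 made up 53.2% ± 1.04 (SD, n = 3) of OAS reads per kilobase in shControl, against 37.5% ± 2.16 with the ARNT hairpin and 41.1% ± 5.45 with the BMAL1 hairpin. OAS2 went from 11.3% ± 0.799 to 3.13% ± 0.403 and 4.08% ± 0.348. The share of OASL was 8.64% ± 0.487 in shControl, which compares with 26.6% ± 1.31 in shARNT and 14.6% ± 1.87 in shBMAL1, and OAS3 reached 40.3% ± 3.53 in shBMAL1 from 26.9% ± 0.390. A larger share here is not a rise, since every one of the 4 transcripts was lower than in control. Of MX1 and MX2 together, MX1 made up 75.2% ± 1.59 per kilobase in shControl, 76.5% ± 4.24 in shARNT and 84.7% ± 2.93 in shBMAL1.

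**Figure D3:**
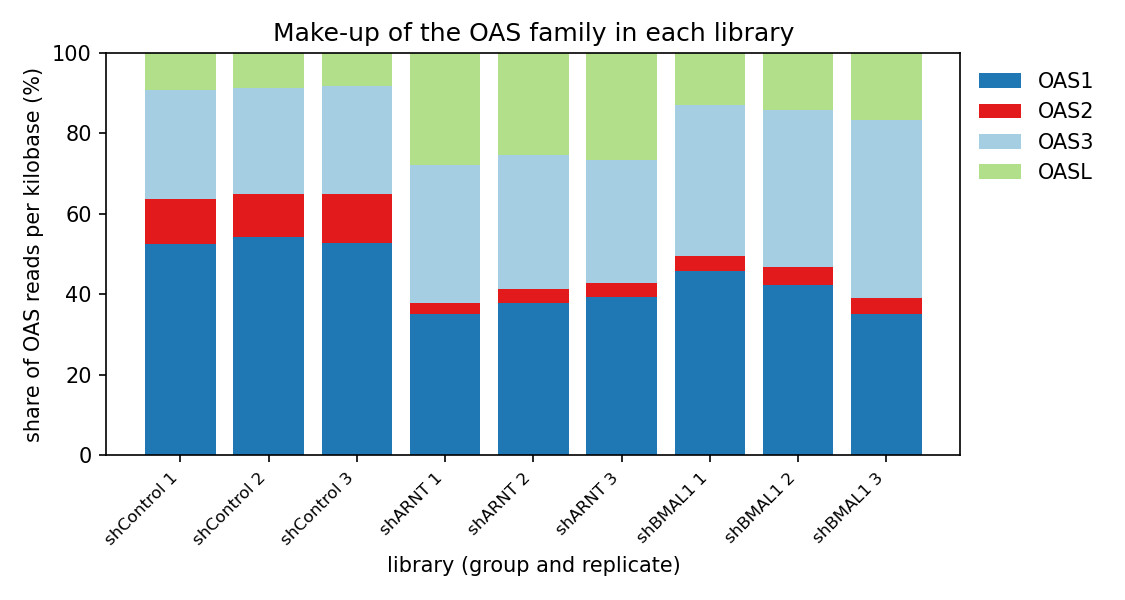
Share (%) of each OAS gene in the summed OAS read counts per kilobase of canonical transcript, for each of the 9 libraries. OAS2 covers 10.5 to 12.1% of the bars in shControl and 2.68 to 4.45% in the knockdowns, while OASL covers 25.3 to 27.9% in shARNT.

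The genes around the OAS and MX proteins in their pathway were counted from lists written by hand. Like the 7 genes, these lists were chosen with earlier results of the data known. Their counts and adjusted p values against shControl are therefore a description. Of 2 genes linked to the oligoadenylates, 0 were lower or higher under shARNT, and 1 was lower under shBMAL1 (DESeq2), beside 19% and 19.4% of all genes called lower. ABCE1, a ribosome recycling factor, changed by 0.06 and 0.01 (adjusted p 0.59 and 0.956). PDE12, which degrades oligoadenylates, was lower under shBMAL1 (−0.30, adjusted p 0.00996) and changed by −0.03 under shARNT (adjusted p 0.858), and the direct comparison of the knockdowns gave −0.26 (adjusted p 0.0240).

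With regard to PKR, the list of 7 network genes had 2 lower and 1 higher under shARNT and 2 lower and 0 higher under shBMAL1, where 19% and 19.4% of all genes were lower and 16.5% and 17.4% higher. Counts in a list this short were near that background. PPP1R15A, which brings a phosphatase to eIF2α, was lower by −0.41 (SE 0.08, adjusted p 7.57e-07) and −0.83 (SE 0.08, adjusted p 7.27e-21), and ATF4, the transcription factor translated when eIF2α is phosphorylated, by −0.41 (SE 0.05) and −0.30 (SE 0.06). TARBP2, an inhibitor of PKR, was higher under shARNT (0.34, adjusted p 0.000136) and changed by −0.01 under shBMAL1 (adjusted p 0.943). The other 4 genes of the list (PRKRA, DNAJC3, EIF2S1 and DDIT3) were not called against shControl, with log2 fold changes from −0.23 to 0.19. Of the 3 other kinases of eIF2α, 2 were called lower in each knockdown. EIF2AK4 (GCN2) was lower in both (−0.25 and −0.51, adjusted p 2.77e-05 and 1.52e-14), EIF2AK1 was called under shARNT (−0.14) and EIF2AK3 under shBMAL1 (−0.20).

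Many interferon-stimulated genes of the list outside the group were also lower. Since this list was chosen with earlier results known, nothing is read from their number. Of 56 such genes tested under shARNT, 47 were lower and 2 higher, with a median log2 fold change of −0.47, and of 58 under shBMAL1, 43 were lower and 3 higher, with a median of −0.63. The shares called lower among all genes were 19% and 19.4%. EPSTI1 (−2.69 and −2.68), IFI27 (−2.63 and −2.16) and CMPK2 (−1.91 and −2.37) were among the most lowered in both knockdowns, with adjusted p values of at most 2.85e-10. IFI6, a mitochondrial interferon-induced protein, was also lower in both (−2.09 and −1.31), as was HELZ2 (−1.08 and −1.70). GBP2, an interferon-induced GTPase, went the other way, with 164 to 175 counts in shControl, 281 to 380 in shARNT and 289 to 387 in shBMAL1 (1.00 and 1.03, adjusted p 2.76e-09 and 1.08e-09). TRIM5 was also higher in both (0.24 and 0.22, adjusted p 0.00243 and 0.0436), whereas LY6E had opposite signs, lower under shARNT (−0.46, adjusted p 1.22e-10) and higher under shBMAL1 (0.30, adjusted p 0.00107), and differed between the knockdowns (0.76, adjusted p 1.75e-17). In the direct comparison 15 of 58 genes were lower and 8 higher in shBMAL1, beside 18% and 17.3% of all genes.

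**Figure D4:**
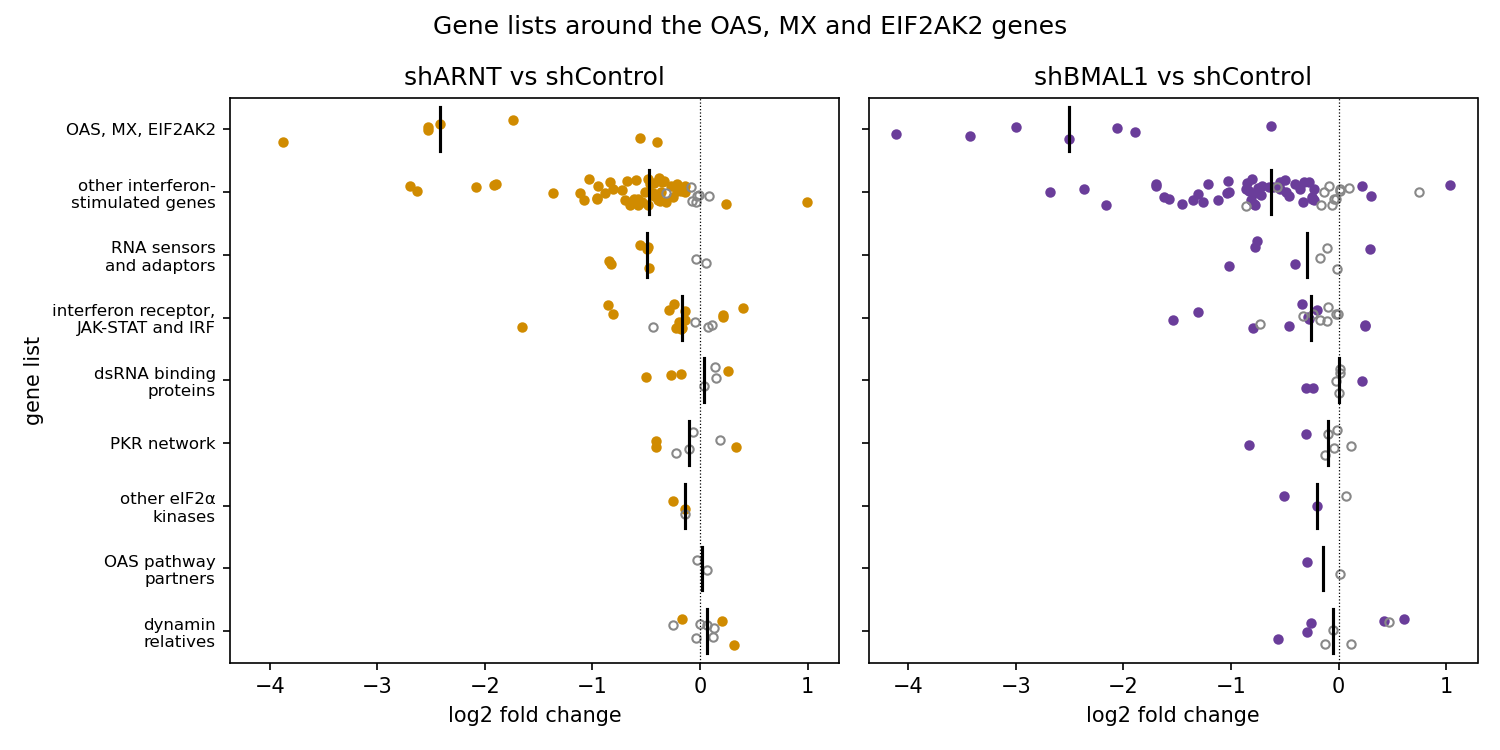
Log2 fold changes of single genes by list in shARNT (left) and shBMAL1 (right) against shControl, where filled points passed an adjusted p under 0.1 in DESeq2, open points did not, and the bar is the median of the list. The bars of the 7 genes are at −2.41 and −2.50 and those of the other interferon-stimulated genes at −0.47 and −0.63.

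A further list held the sensors that find RNA and start the production of interferon, with their adaptors. Of 8 tested, 6 were lower and 0 higher under shARNT, and 4 lower and 1 higher under shBMAL1, beside 19% lower and 16.5% higher and 19.4% lower and 17.4% higher over all genes. The cytosolic sensors DDX58 (RIG-I), IFIH1 (MDA5) and DHX58 (LGP2), which are themselves interferon-stimulated, gave −0.85, −0.83 and −0.50 under shARNT and −0.77, −1.01 and −0.76 under shBMAL1. The kinase IKBKE was lower in both knockdowns (−0.47 and −0.41), and the adaptor TICAM1 was lower under shARNT (−0.56) and at −0.18 under shBMAL1 (adjusted p 0.191). TLR3, the endosomal receptor for double-stranded RNA, had opposite signs, with −0.48 (adjusted p 0.000196) and 0.29 (adjusted p 0.0174), and the knockdowns differed in it (0.78, adjusted p 3.4e-11). MAVS, the adaptor of the cytosolic sensors, changed by −0.04 and −0.01 (adjusted p 0.57 and 0.912).

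Interferon transcripts themselves were near 0 in all groups. Of 10 interferon genes listed, IFNA1, IFNA2, IFNK, IFNG, IFNL2 and IFNL3 had 0 reads in all 9 libraries, which allows up to 3 reads in a library by counting error alone. IFNB1 had 1 read in all of shControl and 0 in the knockdowns. IFNL1 had 9 reads over the 3 control libraries, with some in each, and 0 in all 6 knockdown libraries. IFNE had 8, 14 and 25 reads in shControl, shARNT and shBMAL1. IFNW1 had 0, 2 and 2. DESeq2 tested 1 of the 10 (IFNE, under shBMAL1 and between the knockdowns) and did not call it.

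In the receptor and signalling list of 18 genes, 11 were lower and 3 higher under shARNT (median −0.17), and 8 lower and 2 higher under shBMAL1 (median −0.25). Over all genes 19% and 19.4% were lower and 16.5% and 17.4% higher, so the counts of higher genes were near or below that background. IRF9, the DNA-binding part of the complex that type I interferon activates, had 1244, 1387 and 1246 counts in shControl, 699, 790 and 655 in shARNT, and 822, 695 and 726 in shBMAL1. Its log2 fold changes were −0.85 (SE 0.09, adjusted p 4.64e-19) and −0.79 (SE 0.10, adjusted p 8.34e-15). STAT2, a partner of IRF9, was lower by less (−0.19 and −0.20, adjusted p 0.00234 and 0.00732), as was IRF3, which the RNA sensors activate (−0.29 and −0.46, adjusted p 0.00128 and 2.41e-06). IRF7, which amplifies the response, fell most in this list (−1.65 and −1.53), and USP18, which shuts the receptor off, was at −0.81 and −1.31. The receptor gene IFNAR1 was slightly higher in both (0.21 and 0.25, adjusted p 0.0101 and 0.0622). However, shBMAL1 replicate 1 had 1384 counts of it, within the control range of 1359 to 1495.

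Genes that share the biochemistry of the group were also counted. Of 7 other proteins that bind or process double-stranded RNA, 3 were lower and 1 higher under shARNT and 2 lower and 1 higher under shBMAL1, beside 19% and 19.4% lower and 16.5% and 17.4% higher over all genes. ADAR, the RNA editing enzyme, was lower by −0.27 and −0.23 (adjusted p 3.73e-06 and 0.000533), and STAU1 by −0.50 under shARNT (adjusted p 1.47e-16). DROSHA, which cuts primary miRNA transcripts, was lower in both (−0.18 and −0.31), while DHX9 was higher under shARNT (0.26) and DICER1 under shBMAL1 (0.22, adjusted p 0.0777). The DICER1 call was lost at an adjusted p under 0.05, with a replicate block, and when some single libraries were left out. Of 9 dynamin superfamily relatives of MX1 and MX2 tested, 1 was lower and 2 higher under shARNT and 3 lower and 2 higher under shBMAL1, with list medians of 0.07 and −0.06 and counts near the same background. DNM1 was higher (0.32 and 0.42) and DNM1L lower (−0.16 and −0.26) in both knockdowns. ATL2 was higher under shARNT (0.21), and under shBMAL1 DNM2 was higher (0.61) and ATL3 and OPA1 lower (−0.56 and −0.30).

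Position was examined as a property that the choice of genes did not use. Within 250 kb of the 4 places where the genes lie there were 26 other protein-coding genes. Of 20 tested under shARNT, 5 were lower and 3 higher, and of 24 under shBMAL1, 5 were lower and 6 higher. These counts were near those over all genes (19% lower and 16.5% higher under shARNT, 19.4% and 17.4% under shBMAL1). Beyond OAS2, DTX1 had mean counts of 2.34, 2.61 and 16.6 in shControl, shARNT and shBMAL1, and RASAL1 21.8, 11.2 and 97.0. Both were higher under shBMAL1, by 2.82 and 2.15 (adjusted p 0.00516 and 6.03e-10), while OAS2 in the same stretch fell by 4.11. In this stretch DDX54 (−0.13 and −0.34) and TPCN1 (−0.29 and −0.36) were lower in both knockdowns. Of the 3 neighbours of the MX pair, BACE2, which begins at −194 kb from the start of MX2, was lower by −0.29 and −0.28 (adjusted p 1.67e-05 and 0.00202).

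**Figure D5:**
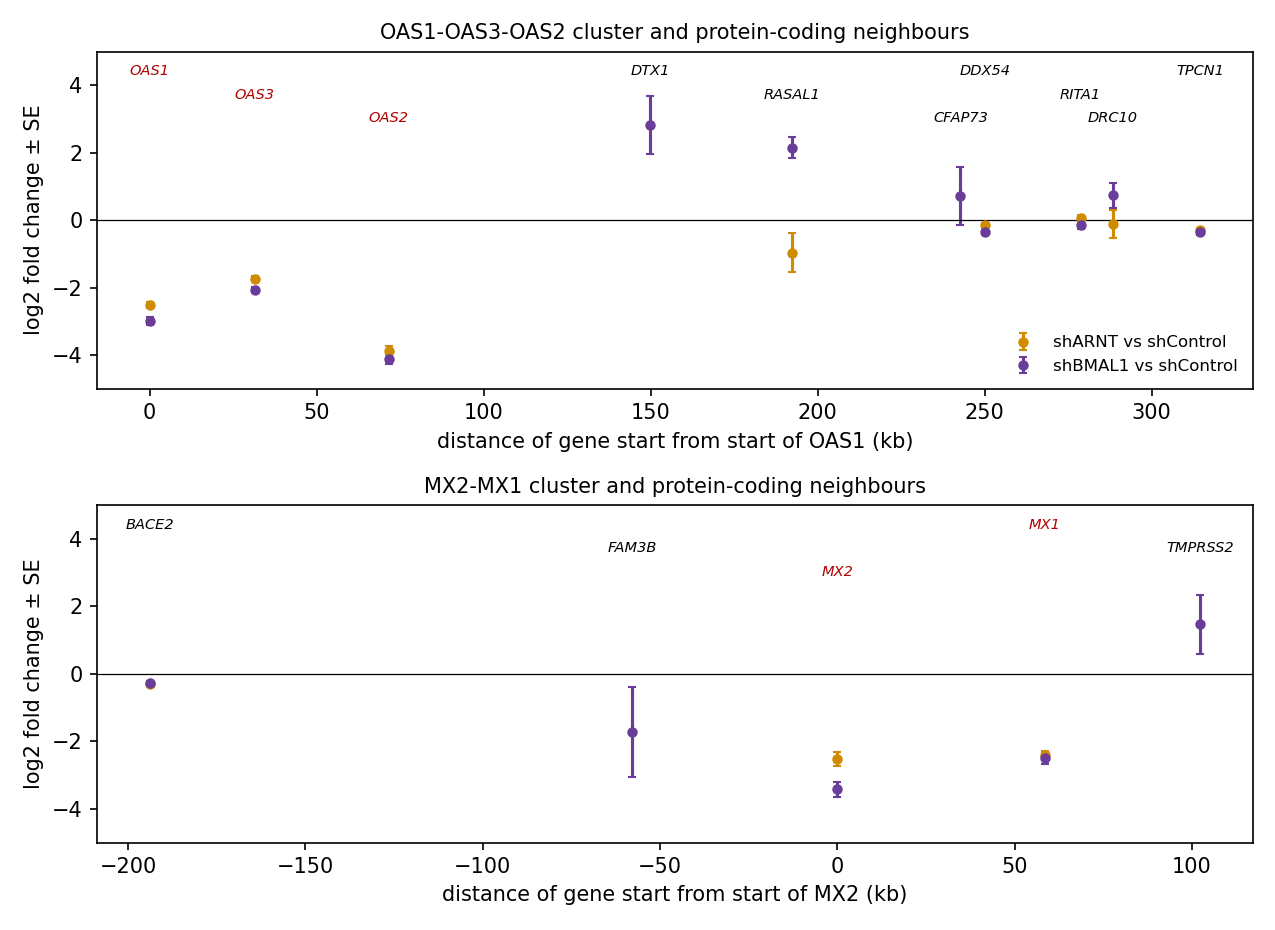
Log2 fold change (± SE) of the OAS1, OAS3 and OAS2 genes (top) and of MX2 and MX1 (bottom), with their protein-coding neighbours within 250 kb, against the distance of each gene start in kb. Names of the members are in red, and only genes that were tested have a point. The members lie between −1.73 and −4.11, while DTX1 and RASAL1 were at 2.82 and 2.15 under shBMAL1.

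Genes with the most similar profile were sought among 12911 genes outside the group of 7 with a mean of at least 50 counts, by the root mean square difference of log2(count + 1) from the control mean over the 9 libraries. A difference of 0 would be the same profile, and the 9 libraries form 3 groups, so the measure mostly compares group means. Among these, EPSTI1 was nearest to OAS1 (0.27), OAS2 (1.08) and MX2 (0.48), and IFI27 and EPSTI1 were nearest to MX1 (both 0.34), followed by CMPK2 (0.40). ASB2, which is not in the interferon-stimulated list, came second for OAS1 (0.49), OAS2 (1.22) and MX2 (0.51). The third places were held by IFI27 for OAS1 (0.51) and OAS2 (1.34) and by NLRP3, also outside that list, for MX2 (0.64). The distances of OAS2 were the longest of the group, since it fell further than the genes nearest to it. OAS3 had ADAMTS2 (0.22) and DCLK1 (0.28) behind a non-coding RNA, LOC107987338 (0.12). OASL was nearest to ADAMTSL1, SLC37A2 and KRT15 (0.13, 0.13 and 0.16), and EIF2AK2 to VSIG1, ANKRD13A and FKBP14 (0.052, 0.061 and 0.071). None of the 3 nearest to OAS3, OASL or EIF2AK2 was in the interferon-stimulated list.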

How the data were processed

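The deposited values were estimated counts, which the authors gave as 1 linear read total for each gene in 9 libraries. The sources differ on their making. The study's methods name GRCh37, SeqMan NGen and ArrayStar, whereas the submitters' processing notes name STAR and hg38. The order of the rows followed GRCh38 in 112 of 117 neighbouring gene pairs whose order differs between the builds (by over 20000 bases), so RefSeq positions on GRCh38.p14 were used. The annotation and strand setting of the counting are not given in the sources used here.

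A value of 0.009 stood for 0 and was set to 0. Fractional values (6.14% of the others, none in the 7 genes) were rounded. Rows of the same name (53) were added, and 28 rows with symbols turned into dates were kept apart. DESeq2 1.42.0 (R 4.3.3) was run for each comparison on its 6 libraries with the Wald test, independent filtering and Benjamini-Hochberg adjustment over all genes tested, and genes with an adjusted p under 0.1 were called, as in the study's methods. Tests were two-sided and were tried on simulated counts. Intervals are 95% and use the DESeq2 SE. Normalised read counts use size factors over all 9 libraries. Transcript lengths came from GENCODE v44lift37 and promoters from RefSeq. Chi-square per degree of freedom between libraries within a group was 7.6 to 17.6, above sampling noise, so no library was a copy of another. Whether replicates were separate infections is not given in the sources used here, so p-values measure the spread between these libraries.

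The members and lists were chosen with earlier results of these data known. The rule for names allowed the 7 members, the targets, any gene of the small pathway lists, the 4 most lowered and 4 most raised called genes of the longer lists (mean of at least 50 counts) and the 3 nearest profiles. MAVS, DTX1, RASAL1, DDX54, TPCN1 and BACE2 were named, and neighbours counted, after their values were seen. Some genes of the lists are not reported here and were left out of the list counts. Alternatives were edgeR 4.0.16 (quasi-likelihood, TMM), TMM size factors, a count filter (10 counts in 3 libraries), no independent filtering, an adjusted p under 0.05, a 1.5-fold minimum, 1 fit of 9 libraries, a replicate block, each library left out, coding length, and, chosen after seeing the data, the mitochondrial genes left out.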

Additional observations from a re-analysis of the deposited data

How the results depend on the processing

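Against shControl all 7 genes stayed lower and were called in each alternative, except that OASL and EIF2AK2 under shARNT did not reach a minimum change of 1.5-fold. That minimum reduced the genes called lower and higher to 711 and 489 (shARNT), 1070 and 1536 (shBMAL1) and 696 and 1368 (shBMAL1 against shARNT). It left 2 of the 7 genes lower in the direct comparison. Of the interferon-stimulated genes it left 22 lower and 1 higher under shARNT, and 2 lower and 2 higher between the knockdowns. Under shBMAL1 it left most of the 43 lower genes and 1 higher. Under shARNT 2 RNA sensors and 3 receptor and signalling genes were lower, and 0 genes of the PKR network, the other eIF2α kinases, the double-stranded RNA binding proteins and the dynamin relatives. Higher counts under shARNT were 0 for the PKR network, double-stranded RNA binding, receptor and dynamin lists. Under shBMAL1 it left 3 receptor and signalling genes and 1 PKR network gene lower, 0 of the oligoadenylate-linked genes, other eIF2α kinases, double-stranded RNA binding and dynamin lists lower, and 1 dynamin relative but 0 RNA sensors, receptor genes or double-stranded RNA binding proteins higher. An adjusted p under 0.05, no independent filtering and the replicate block each left 1 other eIF2α kinase lower under shARNT and 0 double-stranded RNA binding proteins higher under shBMAL1.

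Same-numbered libraries did not deviate together (correlation −0.154 to 0.105), so the numbers were not used as pairs. The replicate block left 1 receptor and signalling gene higher under shARNT and 1 under shBMAL1 (1 there also at an adjusted p under 0.05), and gave MX2 an adjusted p of 0.145 between the knockdowns (DESeq2).

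With each library left out in turn, 2 to 4 of the 7 genes were lower between the knockdowns. Under shARNT the counts were 1 to 2 other eIF2α kinases lower, 1 to 2 double-stranded RNA binding proteins higher, 0 to 1 dynamin relatives lower and 1 to 3 higher, and 1 to 3 receptor and signalling genes higher. Under shBMAL1 they were 1 to 2 other eIF2α kinases lower, and 0 to 1 PKR network genes, 0 to 1 RNA sensors, 0 to 1 double-stranded RNA binding proteins and 0 to 2 receptor and signalling genes higher. Between the knockdowns, the log2 fold change ranged from −0.35 to 0.0537 for MX1 and from −0.13 to 0.0171 for EIF2AK2 when a library was left out. The sign turned for MX1 without shARNT replicate 2 (0.0235), shBMAL1 replicate 1 (0.0537) and shBMAL1 replicate 3 (0.0117), and for EIF2AK2 without shBMAL1 replicate 1 (0.0171). Counts of genes near 0 reads and lists of few genes are limited by depth and by 3 libraries in each group. Causes of these changes were not tested.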
